A study of Malus domestica with 99 samples.

Results

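Late ethylene-dependent, ripening-induced genes of apple are described here as 42 transcript entries of 27230 that were measured in the fruit cortex of all 3 cultivars, Golden Delicious, Granny Smith and Fuji. They were selected on their measured levels among 26306 entries with a RefSeq XM_ accession, chosen by 4 conditions. In each cultivar their mean log2 level in control fruit over days 7, 14 and 21 after harvest was at least 5 and at least 1 above harvest, and their mean in 1-MCP fruit over the same days was lower by at least 1.5. Their difference between 1-MCP and control fruit at day 1 was over -0.8 in at least 1 cultivar, which is what makes them late. The control level alone was met by 11101 entries, level and rise by 252, and level, rise and 1-MCP difference by 68. Of these, 26 were left out because their day 1 difference was at or under -0.8 in every cultivar. Those 26 are called the early entries below. Among the 42 members, 11 were at or under -0.8 at day 1 in 2 cultivars and 7 in 1, so late and early are not cleanly separated.

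Each cultivar was sampled as untreated fruit at harvest, and afterwards at 5 times, day 1, 7, 14, 21 and 2 months, each time as control and as 1-MCP fruit. The treated fruit were kept overnight after harvest in a closed container with 1-methylcyclopropene (1-MCP), which occupies ethylene receptors and blocks them. The labels list 99 libraries, 3 in each of 33 groups. The deposited values are 1 log2 mean per group, so no spread between replicate fruit can be given with any level, and the depth of the libraries is unknown. A library value of 0 was entered as 0.5, which puts a group with no reads at -1, and such a group is said to be listed at 0. Fuji control fruit at day 14 and Fuji 1-MCP fruit at 2 months are means of 2 libraries, the other 31 groups of 3. No marker list large enough to check the cortex label could be matched by name. The only phloem gene matched, pp2-3, differed at 2 months by 0.09 (log2), and the only gene matched for skin and cuticle, GPAT, by 0.16. Neither passed the test.

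Ethylene is the gas hormone that starts and sustains ripening in climacteric fruit such as apple. Its receptors repress signalling until they bind it. Released signalling then acts through EIN3-like and ERF factors on genes of softening, colour, aroma and further ethylene synthesis. Fruit treated with 1-MCP ripen late or incompletely, and regain sensitivity as new receptors are made.

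What the 42 genes encode is not given in the sources used here, so no role is stated for any of them. A table of RefSeq genes, made on assembly GDT2T_hap1, gave a locus number for 20, all protein coding and on 11 chromosomes, when the version of the accession was ignored, and it gave none a gene name. The remaining 22 are named by accession alone. The same conditions were met by 32 of 924 entries outside the XM_ class, among them ACO1, the ACC oxidase that makes ethylene, AFS1, the synthase of the scent and scald precursor alpha-farnesene, and MALD1, an allergen of the PR-10 defence family. The other entries of the 32 were given no gene name, and whether they are separate genes was not checked. The matched loci lay apart, with 81 to 2608 annotated genes between neighbours on a chromosome, except LOC103438035 (XM_008376572) and LOC103423635 (XM_008361725), which had 5 genes between them. Over days 7, 14 and 21 LOC103438035 differed between 1-MCP and control fruit by -3.39 for Golden Delicious, -4.62 for Granny Smith and -4.07 for Fuji. LOC103423635 differed by -4.69, -5.33 and -3.64, the second with a column listed at 0. Of the genes between, LOC103423513 (XM_008361600) was measured in all cultivars and differed by 0.47, 0.41 and -0.22, and LOC103430446 (XM_008368581), which the Fuji table leaves out, by 1.08 (Golden Delicious) and 1.47 (Granny Smith).

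In control fruit the median of the members stayed near its harvest level at day 1 and stood well above it by day 7, while single members had moved further by day 1. The median log2 level of the 42 in Golden Delicious was 5.97 at harvest, 5.91 at day 1, 8.33 at day 7, 8.80 at day 14, 8.82 at day 21 and 8.0 at 2 months. The Granny Smith median was 3.70 at harvest and then 4.36, 7.03, 8.54, 8.51 and 7.88. In Fuji it was 4.90 and then 5.26, 7.58, 8.27, 8.27 and 7.75. The 3 medians were furthest apart at harvest and closest from day 14 on. In bulk cortex, fewer cells that express a gene and less of its RNA per cell cannot be told apart.

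**Figure D1:**
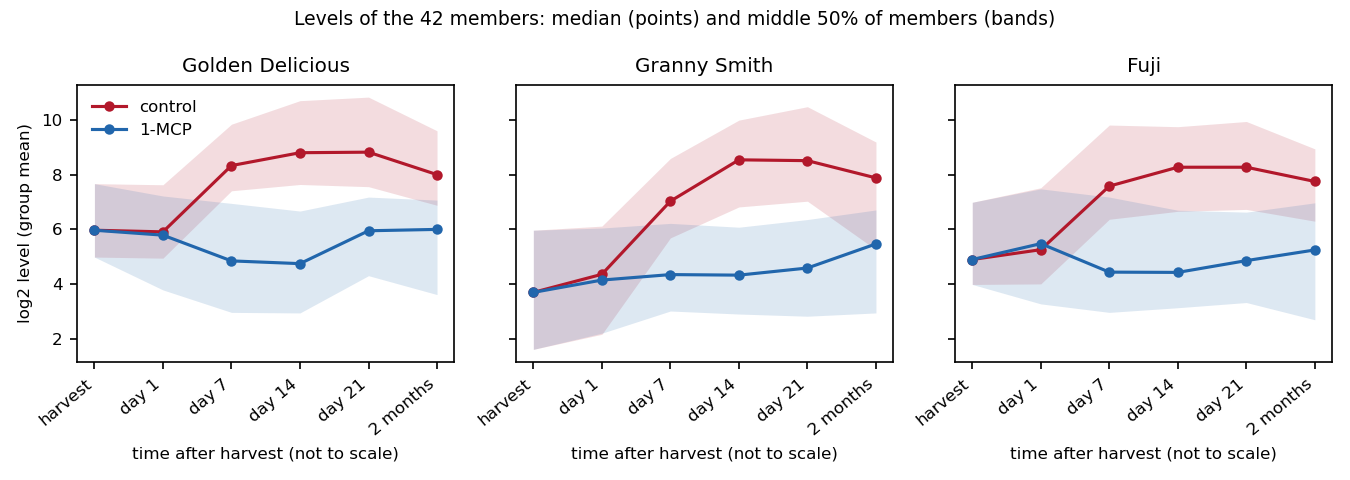
Median log2 level (y axis) of the 42 members at each time (x axis, evenly spaced and not to scale) in control and 1-MCP fruit of each cultivar, with bands that hold the middle 50% of members; harvest fruit open both lines. Control medians at day 7 are 8.33 (Golden Delicious), 7.03 (Granny Smith) and 7.58 (Fuji), while 1-MCP medians at that day are 4.85, 4.35 and 4.44.

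Granny Smith members were near their highest levels an interval later than those of the other cultivars. From harvest to day 1 only 2 of 42 members gained at least 2-fold in Golden Delicious fruit, 13 did in Granny Smith and 7 in Fuji, where 4.58%, 4.52% and 3.99% of all entries did. Between day 1 and day 7, 40 of 42 members gained at least 2-fold in Golden Delicious fruit, 38 in Granny Smith and 38 in Fuji, beside 7.03%, 8.03% and 6.65% of the 20999 entries tested. Between day 7 and day 14 the count was 29 of 42 in Granny Smith, 10 in Golden Delicious and 6 in Fuji, beside 5.73%, 3.51% and 3.65%. After day 14 as large a gain was found for 1 member of Golden Delicious, 2 of Granny Smith and 1 of Fuji, near the 2.95%, 3.84% and 2.89% of all entries. By day 7 the median member had made 69.05% of its rise from harvest to the highest of days 7, 14 and 21 in Granny Smith, 78.8% in Golden Delicious and 87.05% in Fuji, and this share was the smallest of the cultivars in Granny Smith for 27 of 42 members. Granny Smith also had the lowest harvest level for 32 of 42. This count and that of the smallest share were not made over all entries. The early entries, too, gained at least 2-fold between day 7 and day 14 more often in Granny Smith, 10 of 26 against 0 in Golden Delicious and 1 in Fuji. With 1 value per group these steps carry no test, and harvest and days 7, 14 and 21 entered the rule, so the shares are a description.

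**Figure D2:**
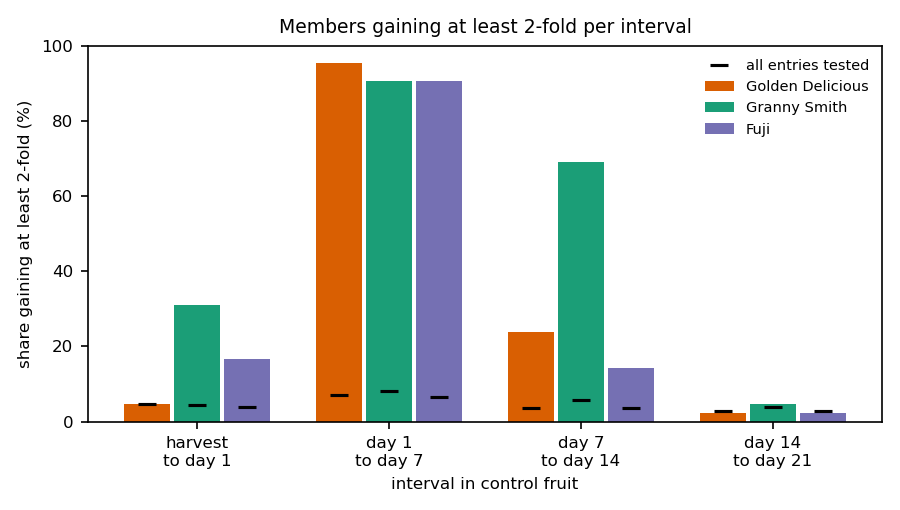
Share of the 42 members (bars, y axis in percent) whose log2 level in control fruit was at least 1 higher at the end of an interval than at its start, for 4 intervals (x axis) and 3 cultivars; black marks give the share of all 20999 entries tested. The bars from day 1 to day 7 stand for 40, 38 and 38 members, and from day 7 to day 14 the Granny Smith bar, 29 members, is the tallest.

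At day 1 the difference between 1-MCP and control fruit was small for the median member but not for every member. The median member differed by -0.46 (Golden Delicious), -0.16 (Granny Smith) and -0.33 (Fuji), beside -2.09, -1.91 and -1.66 for the early entries, which the rule separated on this value. A difference of at least 2-fold downward was found for 11, 8 and 5 of 42 members, where 3.66%, 4.16% and 2.63% of all entries had one, and with 4 added to the linear values for 6, 5 and 3. Limma across the 3 cultivars called 7 of 42 members lower and 0 higher, where 4.09% and 4.48% of all entries were called lower and higher. At an unadjusted p under 0.05, 14 members were lower and 3 higher, where 11.8% and 12.8% of all entries were. The 7 were XM_008382776 (-1.17), XM_008383133 (-1.99), XM_008343630 (-0.74), LOC103438916 (XM_008377460, -0.58), XM_008345466 (-0.51), LOC103442495 (XM_008381289, -0.42) and XM_008349871 (-0.27). Since the rule set a limit on this difference, the count is a description, and it was 3 without Golden Delicious, 0 without the filter on low values and 0 without limma's trend and robust options. Without Granny Smith 7 were called, of which only 2 are among those named. LOC103443285 (XM_008382106) differed by -3.88 in Golden Delicious, -2.69 in Fuji and -0.33 in Granny Smith, where its control level at day 1 was 0.67, and it met the day 1 condition through Granny Smith alone. In 3 members, XM_008374787, LOC103436336 (XM_008374852) and LOC103444569 (XM_008383519), the level at day 1 was higher with 1-MCP in every cultivar, by 0.20 to 0.88.

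Over days 7, 14 and 21, the contrast that chose them, 42 of 42 members were called lower with 1-MCP and 0 higher, where 15.8% and 18.5% of all entries were called lower and higher. At an unadjusted p under 0.05 the counts were 42 and 0, where 22.2% and 25.5% of all entries were. The selection set these counts, which are a description. The median difference was, for Golden Delicious, -2.95 at day 7, -3.69 at day 14 and -2.82 at day 21. In Granny Smith it was -2.28, -3.60 and -3.29, and in Fuji -2.51, -2.90 and -2.70. The gap was widest at day 14 for 27 of 42 members in Golden Delicious fruit, 24 in Granny Smith and 18 in Fuji. It was widest at day 7 for 7, 0 and 8 members. The time of the widest gap was not counted over all entries.

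Members close to the limits of the rule show how gradual its edges are. The lowest control mean inside was 5.07 (XM_008354940) and the nearest outside 4.94 (XM_008372483). The smallest rise inside was 1.003 (XM_008372259) and the nearest outside 0.92 (XM_008372262). The weakest 1-MCP difference inside was -1.5 (XM_008377460), and XM_008393916 missed at -1.498. At day 1, XM_008382776 entered with -0.797 and XM_008341917 was left out with -0.88.

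Whether 1-MCP held a member at its harvest level or took it below differed between members and cultivars. Over days 7, 14 and 21 the 1-MCP mean was at least 2-fold under harvest for 20 of 42 members in Golden Delicious, 11 in Fuji and 3 in Granny Smith, where 11.1%, 10.5% and 8.63% of all entries were. It was at least 2-fold over harvest for 2, 7 and 13 members, where 11.1%, 10% and 7.99% of all entries were. LOC103456171 (XM_008395825) and LOC103438035 were under harvest in all 3 cultivars, and LOC103421996 (XM_008360038) and LOC103428235 (XM_008366333) were over it in all 3. The 1-MCP columns of these days entered the rule, so nothing more is read from the counts, and with 4 added to the linear values the Fuji count under harvest was 7.

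In the first week fewer Granny Smith than Golden Delicious members went down with 1-MCP, a difference between cultivars that was not tested. From day 1 to day 7 the 1-MCP level went down at least 2-fold for 10 of 42 members in Golden Delicious fruit, 9 in Fuji and 4 in Granny Smith, where 6.07%, 5.02% and 5.71% of all entries did. It went up as much for 1, 7 and 8 members, where 3.76%, 3.87% and 4.9% of all entries did, and with 4 added for 0 in Golden Delicious and 3 in Fuji. From day 7 to day 14 a gain of that size was found for 0 members in Golden Delicious fruit, 1 in Granny Smith and 3 in Fuji, where 1.76%, 2.04% and 1.56% of all entries had one, and with 4 added for 0 in Granny Smith and 0 in Fuji.

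**Figure D3:**
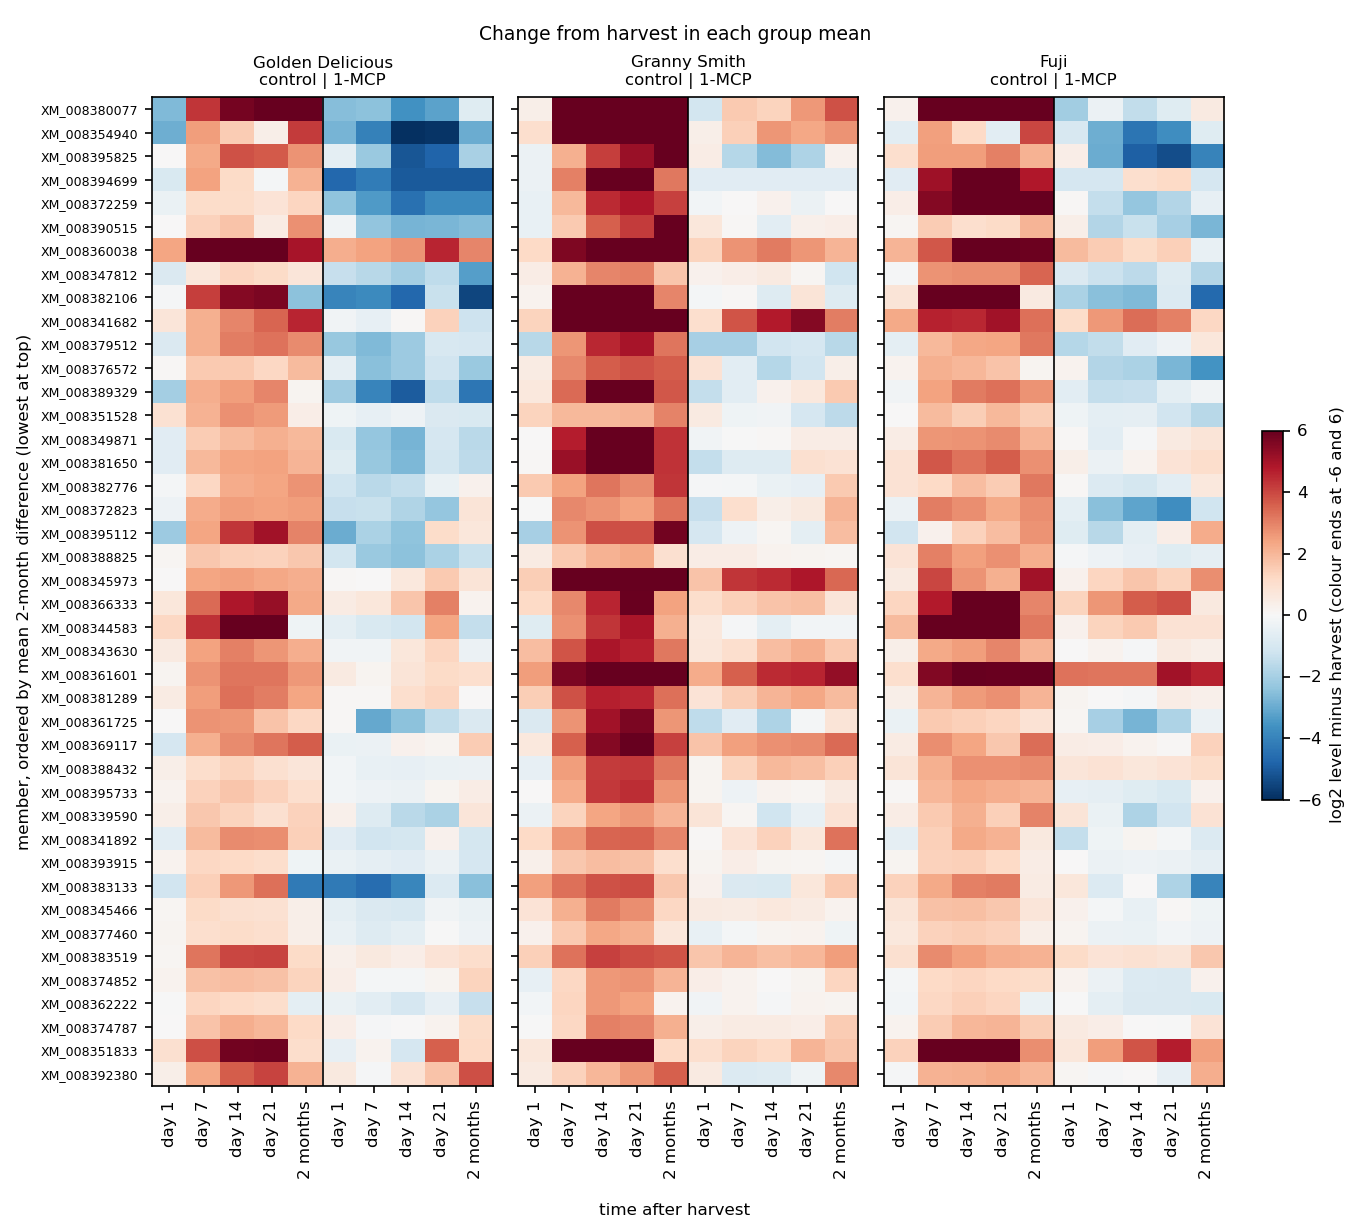
Log2 level of each of the 42 members (rows, ordered by their mean 2-month difference, lowest at the top) minus its harvest level, for control and 1-MCP fruit of each cultivar at 5 times (columns); red is above and blue below harvest, and colours end at -6 and 6. Blue cells in 1-MCP fruit are most frequent in Golden Delicious, where 20 members were at least 2-fold under harvest over days 7, 14 and 21, against 3 in Granny Smith.

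LOC103456171 was below its harvest level with 1-MCP over days 7, 14 and 21. In Golden Delicious its log2 level was 10.47 at harvest, then 10.47, 12.74, 14.28, 14.16 and 13.16 in control fruit at day 1, 7, 14, 21 and 2 months, and 9.90, 8.23, 5.36, 5.67 and 8.51 in 1-MCP fruit. Granny Smith fruit had 6.51 at harvest, then 6.17, 8.66, 10.67, 11.70 and 13.16 in control and 6.94, 4.80, 3.92, 4.65 and 6.77 in 1-MCP fruit. Fuji fruit had 11.03, then 12.04, 13.54, 13.52, 14.04 and 13.11 in control and 11.42, 8.05, 6.13, 5.72 and 7.04 in 1-MCP fruit. Control and 1-MCP values were close at day 1, and from day 7 on the 1-MCP value was the lower in every cultivar. Days 7, 14 and 21 entered the rule, and with 1 value per group no spread can be set beside these differences. The 1-MCP level stood lowest at day 14 in Golden Delicious and Granny Smith and at day 21 in Fuji, and was higher again at 2 months in all 3.

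XM_008345973 stood above harvest with 1-MCP in Granny Smith, where 1-MCP fruit kept a large part of the control rise. There its level was 8.51 at harvest, then 9.98, 14.59, 16.31, 16.24 and 14.67 in control and 10.22, 12.78, 12.97, 13.35 and 11.97 in 1-MCP fruit. In Golden Delicious it was 12.48, then 12.52, 14.83, 14.95, 14.80 and 14.64 in control and 12.53, 12.48, 13.09, 14.04 and 13.24 in 1-MCP fruit. In Fuji it was 7.05, then 7.58, 11.04, 9.76, 9.20 and 12.07 in control and 7.31, 8.34, 8.71, 8.38 and 9.83 in 1-MCP fruit. It was lower at 2 months in 3 of 3 cultivars (-2.11, SE 0.38, limma adjusted p = 0.0198). Over days 7, 14 and 21 its 1-MCP mean lay 4.53 above harvest in Granny Smith, 1.43 above in Fuji and 0.73 above in Golden Delicious, and was below the control mean by 2.68, 1.52 and 1.66.

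In Golden Delicious 1-MCP fruit, several members were higher again by day 21. From day 14 to day 21, 15 of 42 were at least 2-fold higher there, against 5 in Granny Smith and 2 in Fuji, where 2.73%, 1.97% and 1.86% of all entries were. With 4 added to the linear values the Granny Smith count was 1. Among the early entries the counts were 16, 1 and 6 of 26. XM_008382106 alone passed this step in all 3 cultivars. XM_008351833 went from 0.00 at day 14 to 4.6 at day 21 in Golden Delicious 1-MCP fruit, and XM_008344583 from 2.69 to 6.17, while in Granny Smith the same steps were 0.19 to 1.06 and 1.11 to 1.53. Since members were chosen for a low 1-MCP mean over these days, and each value is 1 group mean, the steps are a description.

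The 2-month columns took no part in choosing the members, and there most members were still lower with 1-MCP. The mean difference over cultivars was negative for 40 of 42, and the median of the 42 was -2.08, against 0.07 over all 20999 entries. Limma across the 3 cultivars called 28 of 42 lower and 0 higher at 2 months, where 3.81% and 4.37% of all entries were called lower and higher. At an unadjusted p under 0.05, 36 members were lower and 0 higher, where 12.2% and 16.3% of all entries were. The difference was at least 2-fold in all 3 cultivars for 26 members and in none for 6. The share of all entries that met it in all 3 was not counted, but cannot exceed the smallest share of a single cultivar, 8.33% in Granny Smith. Per cultivar it was at least 2-fold for 30 members in Golden Delicious fruit, 32 in Granny Smith and 32 in Fuji, where 11.4%, 8.33% and 9.19% of all entries were. Of the early entries 20 of 26 were called lower, with a median of -3.18.

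The count of calls rests on cultivars as the unit and moves with them. Without Granny Smith 2 members were called and without Fuji 12, both from fits on 2 cultivars, and without Golden Delicious 26. It was 7 in limma without its trend and robust options, and 0 without the filter on low values, where limma called 0 of 27230 entries, 6079 of them at an unadjusted p under 0.05. The mean difference was negative for 41 of 42 members without Golden Delicious, 41 without Granny Smith and 39 without Fuji. These means reuse 2 of the cultivar differences of the main fit, so they are not a separate test of direction. Leaving out the filter or the trend and robust options does not change a member's mean difference. Its direction could therefore not move in those fits, and they say nothing of how stable it is. Control and treated fruit of a cultivar were followed over time, so the 2-month columns are other fruit but not another experiment.

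**Figure D4:**
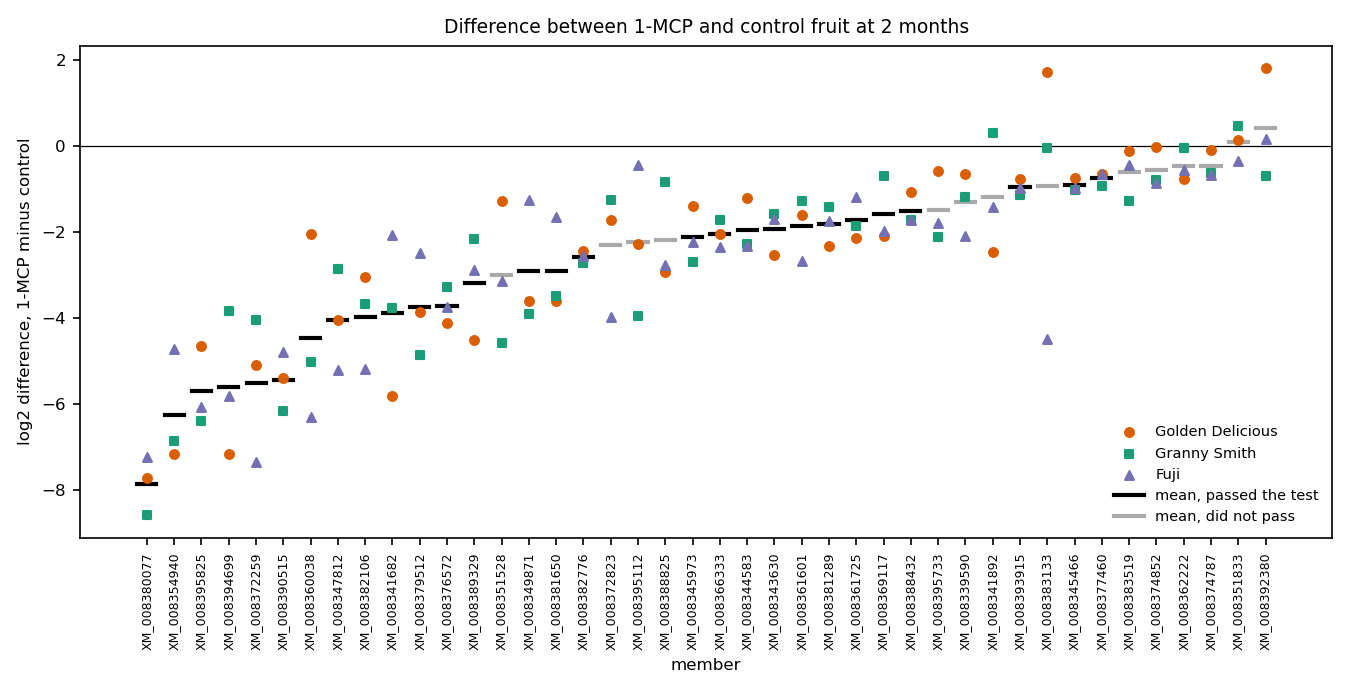
Log2 difference between 1-MCP and control fruit at 2 months (y axis) for each member (x axis, ordered by the mean); points are the 3 cultivars, bars their mean, black where limma called it lower and grey where it did not. The 28 black bars include the lowest, -7.85, and all 3 points lie below 0 for 38 members.

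XM_008380077 had the widest gap at 2 months, -7.85 (SE 0.39, n = 3 cultivars, limma adjusted p = 0.0011), and was lower in 3 of 3 cultivars. In Golden Delicious its level was 5.69 at harvest, then 3.05, 9.98, 11.44, 11.67 and 12.67 in control fruit at day 1, 7, 14, 21 and 2 months, and 3.12, 3.25, 2.04, 2.5 and 4.94 in 1-MCP fruit. Granny Smith fruit had 2.19, then 2.55, 11.06, 12.93, 13.53 and 14.58 in control and 1.11, 3.74, 3.51, 4.77 and 6.0 in 1-MCP fruit. Its Fuji level was 4.08, then 4.33, 10.34, 11.31, 11.37 and 11.85 in control and 1.99, 3.71, 2.62, 3.35 and 4.61 in 1-MCP fruit. In control fruit of all 3 cultivars it was highest at 2 months. From day 7 on its 1-MCP value was under the control value of the same cultivar and time, but days 7, 14 and 21 entered the rule.

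XM_008354940 followed at -6.25 (SE 0.77, adjusted p = 0.00991). In Golden Delicious it stood at 6.57 at harvest, 3.64, 9.09, 8.11, 6.94 and 10.76 in control and 3.76, 2.5, 0.33, 0.67 and 3.58 in 1-MCP fruit. In Granny Smith it stood at -0.33, then 0.67, 9.76, 11.37, 10.69 and 9.23 in control and 0.00, 1.11, 2.30, 2.01 and 2.38 in 1-MCP fruit. In Fuji it stood at 4.06, then 3.43, 6.51, 5.25, 3.44 and 8.08 in control and 3.09, 1.11, -0.33, 0.33 and 3.35 in 1-MCP fruit. Its control course was not shared: day 7 was above days 14 and 21 in Golden Delicious and Fuji, and below them in Granny Smith.

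LOC103456171, described above, came next at -5.71 (SE 0.53, adjusted p = 0.00557). LOC103451079 (XM_008390515) differed by -5.45 (SE 0.39, adjusted p = 0.00343), with -5.39 for Golden Delicious, -6.16 for Granny Smith and -4.80 for Fuji. LOC103433953 (XM_008372259) differed by -5.50 (SE 0.98, adjusted p = 0.0174), with 9.44 in control and 4.34 in 1-MCP fruit for Golden Delicious, 8.91 and 4.86 for Granny Smith, and 8.86 and 1.5 for Fuji. Both were chosen for naming after their values were seen, as were the members below that are neither at an end of the 2-month order nor at a limit of the rule. LOC103438035 differed by -3.71 (SE 0.25, adjusted p = 0.003) and its neighbour LOC103423635 by -1.73 (SE 0.28, adjusted p = 0.0344).

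LOC103455103 (XM_008394699) was the member most often listed at 0 with 1-MCP. At 2 months it was listed at 0 in 1-MCP fruit of all 3 cultivars, while control fruit stood at 6.16 in Golden Delicious fruit, 2.84 in Granny Smith and 4.81 in Fuji. In Granny Smith it was listed at 0 in every 1-MCP group, against -0.67, 2.71, 6.58 and 6.99 in control fruit at day 1, 7, 14 and 21. It was called lower at 2 months (adjusted p = 0.0184), and no fold is given for it. XM_008383133 was listed at 0 in Fuji 1-MCP fruit at 2 months, and LOC103423635 in Granny Smith 1-MCP fruit at day 14.

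Members that were not at least 2-fold lower with 1-MCP at 2 months had moved since day 21 on the control side, on the 1-MCP side or on neither. In Golden Delicious there were 12 of them, and 2 of these, XM_008392380 (1.82) and XM_008383133 (1.72), were more than 2-fold higher with 1-MCP. XM_008383133 stood low in both groups there, at 0.33 in control and 2.06 in 1-MCP fruit, so the size of its difference is uncertain. In 5 of the 12 control fruit alone was at least 2-fold lower than at day 21, in 2 1-MCP fruit alone was at least 2-fold higher, in 1 both, and in 4 neither. In Granny Smith the split of 10 members was 6, 4, 0 and 0, and in Fuji the split of 10 was 3, 3, 0 and 4. Members were chosen for high control and low 1-MCP values at day 21 among other days, so movement toward each other from there on is read only as a description.

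On the control side, 6 members were at least 2-fold lower at 2 months than at day 21 in all 3 cultivars, namely XM_008344583, XM_008351833, LOC103424145 (XM_008362222), LOC103428235, LOC103443285 and XM_008383133. Per cultivar the count was 15 of 42 in Golden Delicious fruit, 24 in Granny Smith and 11 in Fuji, where 15.1%, 10.3% and 10.7% of all entries were lower by as much. At least 2-fold higher than at day 21 were 5, 5 and 6, where 13.4%, 11.2% and 10.3% of all entries were. These counts of a gain lie near the shares of all entries. The control level was highest at 2 months for 8, 8 and 13 of 42 members, which was not counted over all entries.

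From day 21 to 2 months the control level of LOC103443285 changed by -8.11 for Golden Delicious, -6.20 for Granny Smith and -7.03 for Fuji. In Golden Delicious its level was 5.16 at harvest, then 5.08, 9.33, 10.68, 10.83 and 2.72 in control and 1.20, 1.33, 0.44, 3.83 and -0.33 in 1-MCP fruit. Granny Smith fruit had 0.44, then 0.67, 7.33, 8.80, 9.55 and 3.35 in control and 0.33, 0.53, -0.33, 1.20 and -0.33 in 1-MCP fruit. In Fuji it was 4.16, then 4.93, 10.18, 11.36, 11.71 and 4.68 in control and 2.24, 1.64, 1.53, 3.33 and -0.50 in 1-MCP fruit. Control fruit at 2 months had come back to between 2.72 and 4.68, but 1-MCP fruit lay lower still, and the difference of -3.97 (SE 0.63, limma adjusted p = 0.0154) passed the test. The 1-MCP levels at 2 months were near the -1 of a group with no reads, so the size of this difference is uncertain.

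XM_008351833 shared that control peak but not the gap at 2 months. In Golden Delicious its control level was 1.97, 4.89, 6.78, 6.83 and 2.06 at day 1, 7, 14, 21 and 2 months and its 1-MCP level 0.53, 1.20, 0.00, 4.6 and 2.19. In Granny Smith control fruit stood at -0.33, 5.60, 7.35, 8.12 and 0.19 and 1-MCP fruit at 0.00, 0.33, 0.19, 1.06 and 0.67. In Fuji they stood at 1.39, 6.82, 7.41, 7.78 and 2.81, and at 0.67, 2.5, 3.79, 4.73 and 2.45. The 2-month difference was 0.09 (SE 0.24, adjusted p = 0.895), with 0.14, 0.47 and -0.35 in the cultivars.

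XM_008392380 differed by 2 months in a direction that was not shared by the cultivars. In Golden Delicious 1-MCP fruit its level was 9.74, 9.09, 10.0, 10.85 and 13.03 at day 1, 7, 14, 21 and 2 months, against 9.48, 11.48, 12.78, 13.21 and 11.22 in control fruit. Granny Smith 1-MCP fruit had 8.81, 7.48, 7.51, 8.03 and 11.15 against 8.82, 9.64, 10.28, 10.89 and 11.85. Fuji 1-MCP fruit had 11.87, 11.71, 11.80, 11.29 and 13.93 against 11.71, 13.86, 13.92, 14.03 and 13.77. From day 21 to 2 months the 1-MCP level went up by 2.19, 3.12 and 2.64, the control level in Golden Delicious changed by -1.99, and the difference at 2 months was 1.82, -0.71 and 0.16, with a mean of 0.42 (SE 0.74, adjusted p = 0.608).

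At least 2-fold higher in 1-MCP fruit at 2 months than at day 21 in all 3 cultivars were 6 members, XM_008339590, XM_008372823, LOC103436336, XM_008380077, XM_008392380 and LOC103456171. Per cultivar the count was 8 of 42 in Golden Delicious fruit, 11 in Granny Smith and 15 in Fuji, where 8.23%, 8.34% and 8.44% of all entries were. At least 2-fold lower were 13, 5 and 7, where 8.51%, 8.9% and 9.61% of all entries were, and with 4 added the Granny Smith count was 3. XM_008380077 and LOC103456171 were still far under control fruit, whereas LOC103436336 stood at 8.79 against 8.81 (Golden Delicious), 7.73 against 8.52 (Granny Smith) and 7.79 against 8.65 (Fuji) (difference -0.56, SE 0.27, adjusted p = 0.155). XM_008374787 had a like course, with 6.77 against 6.86, 5.90 against 6.52 and 5.74 against 6.40 (difference -0.46, SE 0.18, adjusted p = 0.19).

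**Figure D5:**
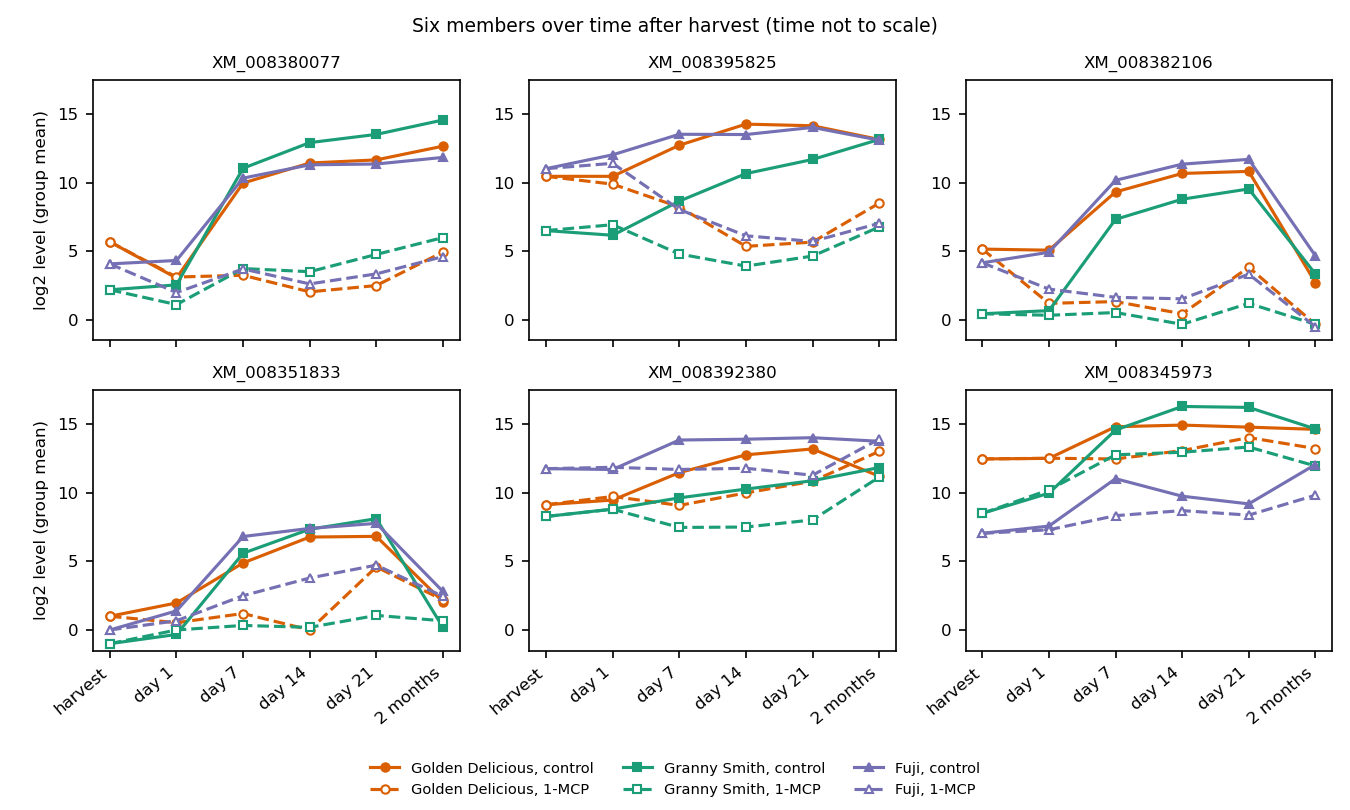
Log2 level (y axis) of 6 members at each time after harvest (x axis, evenly spaced and not to scale), solid lines and filled points for control, dashed lines and open points for 1-MCP fruit, with 1 point per group mean and 1 colour per cultivar. XM_008380077 stays apart to 2 months, XM_008395825 lies under harvest with 1-MCP over days 7 to 21, XM_008382106 and XM_008351833 are highest at day 21 in control fruit, XM_008392380 is 1.82 above control fruit at 2 months in Golden Delicious and 0.16 above in Fuji, and XM_008345973 is above harvest with 1-MCP in Granny Smith.

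Against harvest, control fruit at 2 months were called higher for 23 of 42 members and lower for 0, where 4.32% and 6.83% of all entries were called higher and lower. At an unadjusted p under 0.05, 37 members were higher and 0 lower, where 14.3% and 16.8% of all entries were. Harvest entered the rule, so the count is a description, and it was 0 without Fuji and 9 in limma without its trend and robust options. The level was at least 2-fold over harvest for 31 members in Golden Delicious fruit, 39 in Granny Smith and 33 in Fuji, where 10.3%, 13.7% and 11.8% of all entries were. In 1-MCP fruit at 2 months the same held for 7, 21 and 10 members, where 12.1%, 10.7% and 10.4% of all entries did. XM_008383133 went far under harvest in Golden Delicious control fruit, from 4.58 at harvest and 7.90 at day 21 to 0.33 at 2 months.

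Named ethylene and ripening genes, found by symbol, were read from the same fit at 2 months. Of 16 entries tested in 4 lists, 5 were called lower with 1-MCP than in control fruit and 1 was called higher. In ethylene synthesis ACO1, the 1 entry tested, did not pass (-2.50, adjusted p = 0.0675). Of 5 entries in perception and signalling, the receptor ETR2 was lower (-3.57, SE 0.04, limma adjusted p = 0.000689) and 4 were not called, with a list median of -0.17. Of 3 wall genes the xyloglucan enzyme XET01 (-7.16) and the beta-galactosidase BGAL101 (-2.71) were lower, and XET02, a relative of XET01, was higher by 1.26. Of 7 volatile and lipid genes AFS1 (-8.52) and the lipoxygenase LOX7a (-7.78) were lower and 5 were not called. The list median of -1.40 is the value of LOX6a, an uncalled entry that reached log2 2 only in Fuji control fruit. At 2 months it stood there at 3.2, against -1 with 1-MCP. Its 2-month levels in the other cultivars were -0.67 or -1, so no change of the list is read from this median. In 1-MCP fruit at 2 months XET01, LOX7a and AFS1 stood between -0.33 and 2.79, near the -1 of a group with no reads. The size of their differences is therefore uncertain. The calls of these lists went from 6 to 2 without Granny Smith and to 0 without the filter.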

How the data were processed

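RNA of fruit cortex was sequenced as non-directional single 100-base reads, per the labels' protocols. STAR 2.5.1a and HTSeq are named in the submitters' processing notes; genome build and normalization are not given in the sources used here. The deposited tables hold log2 values by the authors, 1 column per group, 55627 entries for Golden Delicious and Granny Smith and 27230 for Fuji, under a name that says FPKM. Values under 1 on the log2 scale resolved into whole numbers (relative tolerance 0.0003) under an assumption of 3 libraries for 31 columns and of 2 for the other 2, so 97 libraries entered the means. Column quantiles nearly match, as after quantile normalization. Levels are not set per length here, so genes are not ranked by level. Entries that share reads with close copies were not checked.

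A filter kept entries at log2 2 or more in 3 or more of 33 columns (20999, all 42 members among them). Differences between groups were formed per cultivar and tested across the 3 cultivars by two-sided limma (3.58.1, run in R 4.3.3), using lmFit and eBayes with its trend and robust options. A call is a Benjamini-Hochberg adjusted p under 0.05 over all kept entries. The p-values set each effect against the spread of 3 cultivars, which limma moderates with the spread of other entries. They say nothing of replicate fruit. Standard errors are those of the mean of the 3 cultivar differences, unmoderated. A 2-fold step is a log2 difference of 1. The fits were tested on simulated data with known changes. That simulation gave each entry a spread drawn from other entries, so it lacked the tie of spread to level that the trend option uses. It is not used to judge the calls.

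The members, the lists and the tests were chosen with earlier results of these data known. Members were to be named by role from product names. The gene table has symbols but no products, so roles and the pathway and tissue lists by product could not be used; lists were matched by symbol instead, after this was seen. Named are the 3 members at each end of the mean 2-month difference, those nearest the limits of the rule, and others the text marks. Promoter motifs were not searched, since no sequence was used here.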

Additional observations from a re-analysis of the deposited data

How the results depend on the processing

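Counts of members called depend on the cultivars and on how limma shares spread. At 2 months 28 members were called lower, and 24 to 28 with a stricter filter, 4 added, centred differences or Golden Delicious left out; the count was 0 without the filter on low values, 7 without trend and robust options, 2 without Granny Smith and 12 without Fuji. At day 1 it was 7, and 0 without the filter, 0 without trend and robust options and 3 without Golden Delicious. Which members were called changed too. At day 1, 7 were called without Granny Smith, but only 2 of them in the main fit, as was 1 of the 3 without Golden Delicious. At 2 months 22 of the 26 called without Golden Delicious were called in the main fit. Control fruit at 2 months against harvest gave 23 members higher, and 0 without the filter, 9 without trend and robust options and 0 without Fuji. Calls in the 4 named lists at 2 months went from 6 to 0 without the filter and to 2 without Granny Smith. Over days 7, 14 and 21 the counts were 38 to 42 in the alternatives run, but the members were selected on this contrast, so the range says nothing of stability. Among the 6 members named for their 2-month difference, XM_008351833 changed sign with 4 added (-0.008) and without Granny Smith (-0.108), and XM_008392380 without Golden Delicious (-0.272), none of them called. Of 54 counts of 2-fold steps, 44 stayed within 1.5 times with 4 added and 54 with centred differences, both chosen after seeing the data. The cause of these shifts was not tested. No paired analysis was possible because each column is a group mean, and for the same reason no single library could be left out. Library depth is not known, so the precision of low levels cannot be given.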
